A study of Mus musculus with 2 samples.

Results

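The genes described are 10 genes of the crypt stem cell and of Wnt signalling in the intestine: Lgr5, Olfm4, Ascl2, Smoc2, Axin2, Rnf43, Znrf3, Ephb2, Sox9 and Bmi1. They were taken by gene name from the array's own annotation, with all of their probes. All 10 were on the array, out of 26582 genes or unnamed probes in all, and all 10 passed the filter on dim probes, as 18987 did. They had 18 probes on 27 spots. Of these probes, 16 were tested, since 1 of the genotypes gave a signal well above background on both arrays, and 6 genes had more than 1 tested probe.

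Intestinal RNA of male C57BL/6 mice lacking Gpcpd1 (GDE5) in the gut was compared with that of wild-type males, both 20 weeks old and on a normal diet. Gpcpd1 encodes a phosphodiesterase that releases choline from glycerophosphocholine. The series text speaks of 5 mice, without saying whether this is per genotype. Pooling of RNA, the stretch of intestine and the promoter behind the gut-specific deletion are not given in the sources. The 2 RNAs were hybridised together on each of 2 dual-colour arrays, with the RNA labelled knockout in Cy3 in replicate 1 and in Cy5 in replicate 2. Values are given as the log2 ratio of knockout over wild type, by label, with the mean ± SD over arrays (n = 2). Since nothing states that separate extracts went onto each array, p-values and intervals cover only how far 2 hybridisations differed, possibly for technical reasons. No dye term was fitted, so a dye effect shared by the arrays cancels in the mean but adds to the SD and widens the interval.

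The intestinal lining is renewed from stem cells at the crypt base, which divide while they receive Wnt and R-spondin signals and carry the receptor Lgr5. Wnt ligands bind Frizzled and LRP receptors and spare beta-catenin from destruction, and beta-catenin then switches on target genes with TCF factors. Several of these targets feed back on the pathway: Axin2 rebuilds the destruction complex, and the ubiquitin ligases Rnf43 and Znrf3 remove Frizzled from the cell surface unless R-spondin and Lgr receptors hold them back. In whole intestinal RNA, fewer stem cells and less RNA per stem cell cannot be told apart.

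In the RNA labelled knockout 75.3% and 70.3% of gene spots were well above background in replicates 1 and 2, against 69.3% and 76.1% in the RNA labelled wild type. Across the 18987 genes, the knockout over wild-type ratios of replicates 1 and 2 had a correlation of r = -0.38 (Spearman -0.42), with genes that are not independent replicates. The size of r depended on the processing. It was -0.02 with the scanner software's processed ratios, -0.21 with a smooth surface over row and column removed and -0.50 with median centring. Where both arrays carry the same dye effect, a genotype ratio turns its sign between them. The direction was kept because the labels state the dyes. Gpcpd1 itself had an intensity of 1260 and 1760 in the RNA labelled knockout, against 1030 and 834 in the RNA labelled wild type, at its brightest probe (0.68 ± 0.56, limma adjusted p = 1). Its other 3 probes were at 0.62 ± 0.08, 0.47 ± 0.25 and -0.13 ± 0.43. The targeted gene was thus not lower in the RNA labelled knockout, and every direction rests on the dye labels. Which exons were deleted is not stated in the labels, so these probes may check nothing.

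Probes of the same gene did not always move together, and the Olfm4 probes printed here show this. The Ephb2 and Sox9 probes are printed because they join exons, not because they differ from the other probes of their genes. Both Olfm4 probes lie on chromosome 14 (mm9, plus strand), the first at chr14:80421398-80421457 and the second at chr14:80421539-80421598. The Ephb2 probe shown (chr4:136213476-136214873, minus strand) and the Sox9 probe shown (chr11:112644310-112645162, plus strand) span 1398 and 853 bases of the mm9 genome with 60 bases of probe, so each joins exons. Each is given 5′ to 3′ in lower case, with no base singled out.
Olfm4, probe A_52_P607507: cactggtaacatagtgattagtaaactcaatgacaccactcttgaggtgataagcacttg
Olfm4, probe A_52_P828218: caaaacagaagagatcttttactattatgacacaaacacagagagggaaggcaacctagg
Ephb2, probe A_51_P163714: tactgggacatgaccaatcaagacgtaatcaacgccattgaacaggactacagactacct
Sox9, probe A_51_P451606: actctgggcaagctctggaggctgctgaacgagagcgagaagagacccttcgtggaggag

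None of the 10 genes differed between the genotypes by limma over all genes tested (adjusted p = 1 for each, and 0 of 10 at an unadjusted p under 0.05). The background for that rule was 0% of all genes called, with 1.24% at an unadjusted p under 0.05. None of the 10 reached 1.5-fold in 1 genotype direction on both arrays, which 0.216% of all genes did (0.158% higher and 0.0579% lower). Sox9 was higher on both arrays, Ascl2 and Smoc2 were lower on both, and the other 7 went opposite ways. Over all genes tested, 16.9% were higher on both, 18.1% lower on both and 64.9% opposite, so the split among the 10 lies near that background. Their median ratio was -0.03, with -0.01 in replicate 1 and -0.17 in replicate 2, against -0.01 for all genes tested. The median distance from an estimate to the end of its 95% interval was 0.53 on the log2 scale.

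**Figure D1:**
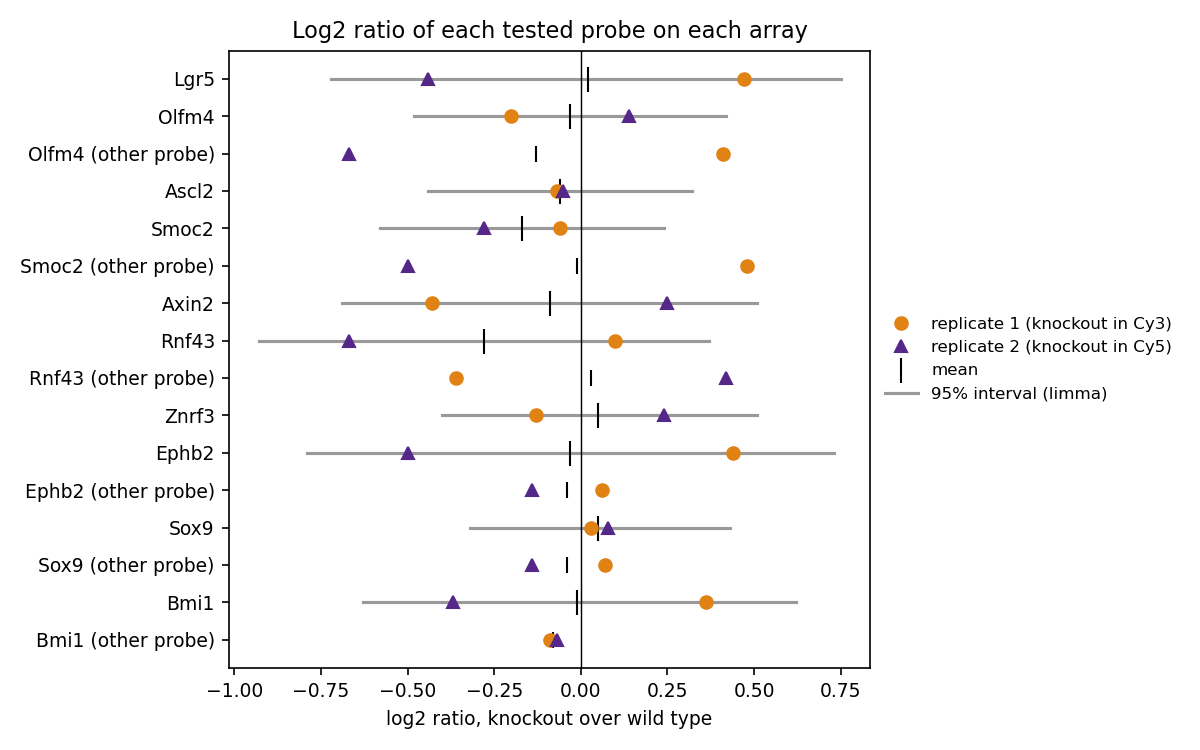
Log2 ratio of knockout over wild type (x axis) for the 16 tested probes of the 10 genes (y axis), with replicate 1 as circles, replicate 2 as triangles and the mean as a bar. Grey lines are limma's 95% intervals for the brightest probe of each gene, and all 10 include 0.

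Receptors and secreted proteins of the stem cell came first. Lgr5, the R-spondin receptor that marks crypt base stem cells, had a normalized intensity of 1390 and 953 in the RNA labelled knockout, against 1000 and 1290 in the RNA labelled wild type, in replicates 1 and 2 (probe A_51_P218091, chromosome 10, 114888847 to 114888906, mm9). The knockout signal was the higher on replicate 1 and the lower on replicate 2, and the groups overlapped. Its log2 ratio was 0.47 on the first array and -0.44 on the second, with a mean of 0.02 ± 0.64 and a 95% interval of -0.72 to 0.75 by limma, or 0.609-fold to 1.68-fold. The Cy3 signal was thus the brighter on both arrays, with a mean Cy5 over Cy3 log2 ratio of -0.45. The second Lgr5 probe, A_52_P30169, was not well above background in either RNA on either array and was not tested.

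Olfm4, a secreted glycoprotein abundant in crypt base stem cells, had an intensity of 1460 and 1830 in the RNA labelled knockout, against 1680 and 1660 in the RNA labelled wild type. The knockout values lay on either side of the wild-type ones. The log2 ratio was -0.03 ± 0.24 (95% interval -0.48 to 0.42). The second Olfm4 probe printed above had 1220 and 838 in the RNA labelled knockout, against 919 and 1330 in the RNA labelled wild type. It went the opposite way on each array from the first, with 0.41 in replicate 1 and -0.67 in replicate 2 against -0.20 and 0.14, so the same transcript gave opposite signs within a hybridisation. Both means lay close to 0, the second at -0.13 ± 0.76.

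Smoc2, a matricellular protein of the stem cell signature, had an intensity of 781 and 678 in the RNA labelled knockout, against 813 and 825 in the RNA labelled wild type (chromosome 17, 14540516 to 14540575, mm9). Both knockout values lay below both wild-type values, at a log2 ratio of -0.17 ± 0.16 (95% interval -0.58 to 0.24). The second probe (14540647 to 14540706) gave 0.48 in replicate 1 and -0.50 in replicate 2, with a mean of -0.01 ± 0.69, so it did not show the difference.

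Ascl2, the transcription factor that holds the stem cell state under Wnt, was the dimmest of the 10 probes. Its intensity was 95 and 90.8 in the RNA labelled knockout, against 99.5 and 94.2 in the RNA labelled wild type (chromosome 7, 150154439 to 150154498, mm9). The groups overlapped across arrays, and the log2 ratio was -0.06 ± 0.01 (95% interval -0.44 to 0.32). All intensities carry the offset of 50 added in the background correction, which draws the ratios of dim probes toward 0. In the scanner software's processed ratios, which have no such offset, Ascl2 was at -0.26 in replicate 1 and 0.26 in replicate 2, with a mean of 0.00 ± 0.37.

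**Figure D2:**
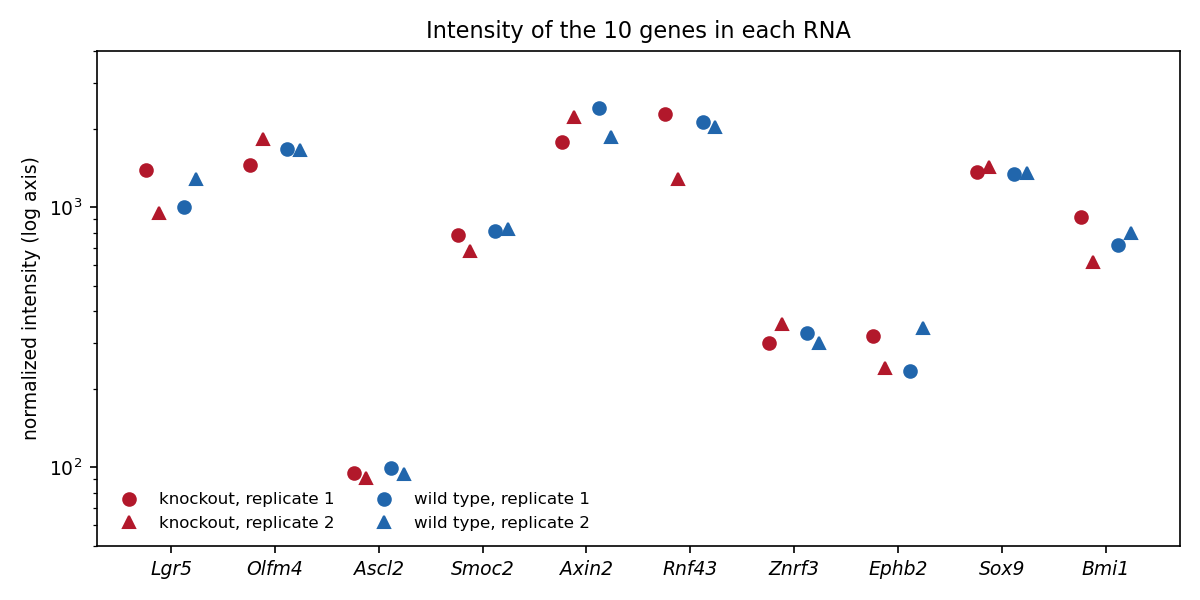
Normalized intensity (y axis, log scale) of the brightest tested probe of each of the 10 genes (x axis) in the RNA labelled knockout (red, left) and wild type (blue, right), with replicate 1 as circles and replicate 2 as triangles. The knockout values lie wholly below the wild-type values for Smoc2 and wholly above for Sox9, and the groups overlap for the other 8 genes. The share of all genes tested that separate in this way is not given. Levels of different probes are not comparable.

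Feedback inhibitors of Wnt signalling came next. Axin2 had an intensity of 1780 and 2220 in the RNA labelled knockout, against 2400 and 1860 in the RNA labelled wild type (chromosome 11, 108811980 to 108812039, mm9). The knockout signal was the lower on replicate 1 and the higher on replicate 2. The log2 ratio was -0.43 on the first array and 0.25 on the second, with a mean of -0.09 ± 0.48 (95% interval -0.69 to 0.51). Here the Cy5 signal was the brighter on both arrays.

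Rnf43 had the largest mean of the 10 in absolute size. Its intensity was 2290 and 1280 in the RNA labelled knockout, against 2130 and 2030 in the RNA labelled wild type (chromosome 11, 87548944 to 87549003, mm9). The value of 1280 in replicate 2 stood apart from the other 3. The log2 ratio was 0.10 on the first array and -0.67 on the second, with a mean of -0.28 ± 0.54 (95% interval -0.93 to 0.37), and 6.68% of all genes tested had a mean at least as far from 0. Its second probe went the other way on each array, with -0.36 in replicate 1 and 0.42 in replicate 2 and a mean of 0.03 ± 0.55.

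Znrf3, the paralogue of Rnf43, had an intensity of 300 and 355 in the RNA labelled knockout, against 328 and 302 in the RNA labelled wild type (chromosome 11, 5176747 to 5176806, mm9). The groups overlapped, and the log2 ratio was 0.05 ± 0.26 (95% interval -0.40 to 0.51).

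The remaining genes act in cell position, lineage and chromatin. Ephb2, a receptor tyrosine kinase induced by Wnt that sorts cells along the crypt through ephrins, had an intensity of 319 and 242 in the RNA labelled knockout, against 235 and 343 in the RNA labelled wild type (chromosome 4, 136210602 to 136210661, mm9). Its log2 ratio was 0.44 on the first array and -0.50 on the second, with a mean of -0.03 ± 0.67 (95% interval -0.79 to 0.73). The exon-joining Ephb2 probe printed above was dim, at 79.3 and 71.9 in the RNA labelled knockout, against 76.0 and 79.5 in the RNA labelled wild type. It was the only single-spot probe of the 10 genes for which the authors' deposited p-value of the scanner software was under 0.05 on both arrays (0.0239 and 0.00646). The Cy3 signal was the brighter on each array, so the genotype sign was positive on replicate 1 and negative on replicate 2.

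Sox9, a transcription factor of the crypt base and of Paneth cells, had an intensity of 1370 and 1430 in the RNA labelled knockout, against 1340 and 1350 in the RNA labelled wild type (probe A_52_P577484, chromosome 11, 112647008 to 112647067, mm9). The knockout values lay above the wild-type values by little, at a log2 ratio of 0.05 ± 0.03 (95% interval -0.32 to 0.43). A second probe, A_52_P214630, gave -0.04 ± 0.15. The exon-joining Sox9 probe printed above was well above background in neither genotype on both arrays and was not tested.

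Bmi1, a Polycomb protein used as a marker of slowly cycling crypt cells, had an intensity of 915 and 614 in the RNA labelled knockout, against 715 and 794 in the RNA labelled wild type (chromosome 2, 18607987 to 18608046, mm9). The knockout signal was the higher on replicate 1 and the lower on replicate 2. The log2 ratio was 0.36 on the first array and -0.37 on the second, with a mean of -0.01 ± 0.51 (95% interval -0.63 to 0.62). Its second probe was at -0.08 ± 0.02.

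Single arrays would have given another picture. On replicate 1 alone Lgr5, Ephb2 and Bmi1 lay from 0.36 to 0.47 above 0, and on replicate 2 alone they lay from 0.37 to 0.50 below it. The median SD between arrays was 0.37 for the 10 genes and 0.17 for all genes tested. Of the 16 tested probes, 8 had the brighter Cy3 signal on both arrays, 4 the brighter Cy5 signal on both, while 1 was higher and 3 were lower in the RNA labelled knockout on both.

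**Figure D3:**
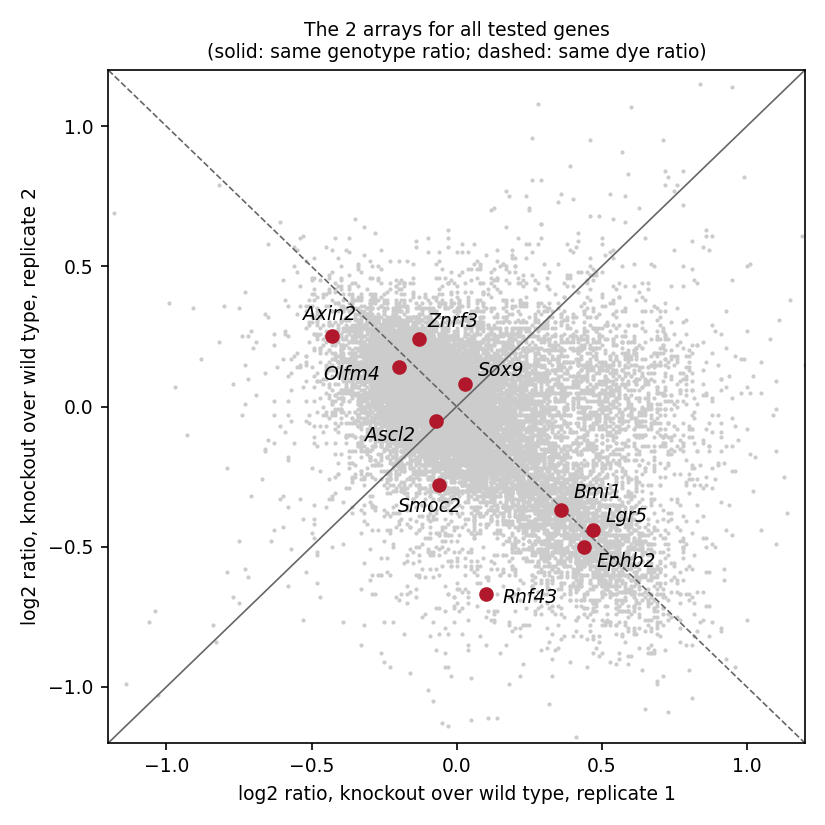
Log2 ratio of knockout over wild type in replicate 1 (x axis) and replicate 2 (y axis) for all 18987 genes tested (grey) and the 10 genes (red). Points on the solid line have the same genotype ratio on both arrays and points on the dashed line the same dye ratio; Lgr5, Ephb2 and Bmi1 lie near the dashed line at about 0.4 to 0.5, and Ascl2 and Sox9 near the origin.

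The Cy5 over Cy3 ratio of gene spots differed between rows of the array. Over all gene spots of rows 1 to 67, the median Cy5 over Cy3 log2 ratio was -0.18 on replicate 1 and -0.17 on replicate 2, while rows 201 to 266 had 0.08 and 0.05. The bands of rows were chosen after the values were seen, so the split of probes by row describes them and tests nothing. The tested single-spot probes of the 10 genes in rows 1 to 133 were those of Lgr5 (brightest), Ephb2 (brightest), Bmi1 (brightest), Olfm4 (second) and Smoc2 (second). All 5 had the brighter Cy3 signal on both arrays, with Cy5 over Cy3 from -0.54 to -0.36. The 10 such probes below row 133 ranged from -0.38 to 0.39 with a median of 0.01. Of these, 2 had the brighter Cy3 signal on both arrays and 4 the brighter Cy5 signal. The part of place on the array in these values was not tested. With a smooth surface over row and column taken off each array, the 5 probes ranged from -0.38 to -0.15, and the means of Lgr5, Ephb2 and Bmi1 were -0.05, -0.05 and -0.03.

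The Sox9 probe A_52_P214630 was printed on 10 spots of each array and shows the same within a single sequence. On replicate 1 its log2 ratio of knockout over wild type ranged from -0.25 to 0.54 with a median of -0.10 (SD 0.31, 10 spots), and on replicate 2 from -0.50 to 0.21 with a median of -0.33 (SD 0.29, 9 spots, as 1 was marked as an outlier). The 4 spots in rows 1 to 61 gave 0.34 to 0.54 on replicate 1 and -0.50 to -0.34 on replicate 2. The other 6 spots, in rows 145 to 506, gave -0.25 to -0.08 on replicate 1. On replicate 2, 4 of these gave 0.03 to 0.21 and the spot in row 506 gave -0.33. Spots of 1 probe thus differed in sign on each array. In the scanner software's processed ratios, which are detrended over the array, the SD was 0.17 in replicate 1 and 0.18 in replicate 2.

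**Figure D4:**
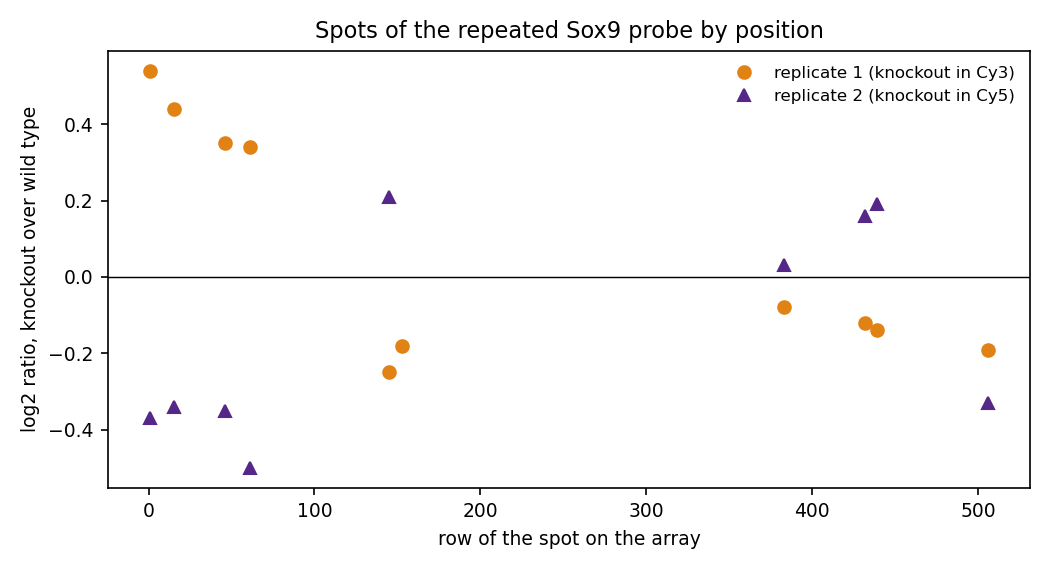
Log2 ratio of knockout over wild type (y axis) for the spots of Sox9 probe A_52_P214630 against their row on the array (x axis), with 10 spots of replicate 1 as circles and 9 of replicate 2 as triangles. In rows 1 to 61 replicate 1 lies from 0.34 to 0.54 and replicate 2 from -0.50 to -0.34.

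When the processed ratios were used, the mean ratios of the 10 genes ranged from -0.19 for Rnf43 to 0.09 for Znrf3, none passed limma (adjusted p = 1 for each), and the interval of each included 0. Bmi1 was the only gene of the 10 of the same sign on both arrays there, at -0.07 ± 0.02. Of the 18987 genes tested, 3840 were higher on both arrays, 4006 lower on both and 11141 opposite with these ratios.

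The rest of the Wnt pathway was looked at through lists, which are described by counts and were not tested. None of the genes in these lists or those further on passed limma over all genes tested with normexp and loess. With the same values, none in the pathway and niche lists reached 1.5-fold on both arrays in 1 genotype direction. With the processed ratios, 1 of the other Wnt target genes, Lef1, was at least 1.5-fold higher on both. Of 18 Wnt ligands, R-spondins and secretion genes, 1 was higher on both arrays, 8 were lower on both and 9 were opposite, with a median of -0.02. Wnt4 was at -0.18 ± 0.05, Wnt3, the ligand made by Paneth cells, at -0.17 ± 0.05, and Wnt11 at -0.27 ± 0.26. The second tested Wnt3 probe gave -0.43 in replicate 1 and 0.12 in replicate 2. Wnt4 was dim, at 110 and 98.7 in the RNA labelled knockout, against 122 and 115 in the RNA labelled wild type. Its processed ratios were 0.03 in replicate 1 and -0.40 in replicate 2. Of 17 receptors, 4 were higher and 4 lower on both, with a median of -0.10. That median was -0.10 on replicate 1 and 0.04 on replicate 2, so leaving out replicate 1 turned its sign. In 12 of the 25 lists set beside the 10 genes, the medians of the 2 arrays differed in sign. Among the receptors, the Frizzled Fzd5, needed for Paneth cell maturation in mouse, was at 0.29 ± 0.11, but its second probe was at -0.05 ± 0.27. Of 29 genes of the destruction complex, Dishevelled and TCF complexes, 5 were higher and 5 lower on both (median 0.01). The scaffold Axin1 was at 0.22 ± 0.19, the kinase Csnk1e at 0.15 ± 0.06 and Btrc at -0.10 ± 0.07. Of 18 antagonists, 4 were higher and 3 lower on both (median -0.02). Shisa3, of a family that holds Frizzled back inside the cell, was at 0.38 ± 0.01. The secreted Sfrp5 was at 0.22 ± 0.03 and Wif1 at -0.13 ± 0.00, both from dim probes. Sfrp5 had 72.4 and 86.6 in the RNA labelled knockout, against 63 and 73.2 in the RNA labelled wild type.

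Other Wnt target genes were divided. Of 25 tested, 7 were higher on both arrays, 7 lower on both and 11 opposite, with a median of -0.01. Cyclin D1, Ccnd1, had an intensity of 1890 and 1760 in the RNA labelled knockout, against 2130 and 2030 in the RNA labelled wild type, at -0.19 ± 0.02 (adjusted p = 1 by limma). Bambi, a decoy receptor for BMP signals, was at -0.32 ± 0.18. The transcription factor Lef1, which lymphocytes express too, had an intensity of 135 and 146 in the RNA labelled knockout, against 107 and 111 in the RNA labelled wild type, at 0.37 ± 0.05. Its second tested probe was at 0.04 ± 0.08. In the processed ratios the first probe was at 0.75 and 0.60 in replicates 1 and 2, and the second at 0.48 and 0.22. Leukocyte markers leaned the same way: 6 of 12 were higher on both and none lower on both (0.05 and 0.17 as the medians of replicates 1 and 2). Their summed intensity overlapped, at 101000 and 126000 in the RNA labelled knockout, against 143000 and 111000 in the RNA labelled wild type. Bright probes weigh most in such a sum, so the overlap does not describe each of the 12. The part of leukocytes in the Lef1 value was not tested.

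Of 25 further crypt stem cell genes, 5 were higher on both arrays, 2 lower on both and 18 opposite (median 0.03). Clu, a secreted chaperone that marks regenerating crypt cells in mouse, stood furthest apart. Its intensity was 3400 and 3410 in the RNA labelled knockout, against 2450 and 2470 in the RNA labelled wild type. Both knockout values lay above both wild-type values, at 0.47 ± 0.01, and limma gave an unadjusted p = 0.0259 and an adjusted p = 1. Ly6a, a surface protein of the same regenerating state and of lymphocytes, was at 0.22 ± 0.04, with 2970 and 2870 in the RNA labelled knockout against 2600 and 2410 in the RNA labelled wild type. On both arrays the Cy3 signal was brighter for Rgmb (0.71 and -0.78), Kcnq1 (0.66 and -0.62) and Nav1 (0.58 and -0.69), as for Lgr5. These stem cell genes were chosen after their values were seen. The median Cy5 over Cy3 log2 ratio of the 25 genes was -0.02. In the processed ratios Rgmb was at 0.23 and -0.36, Kcnq1 at 0.12 and -0.24 and Nav1 at 0.38 and -0.75. The part of the dye in these values was not tested.

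**Figure D5:**
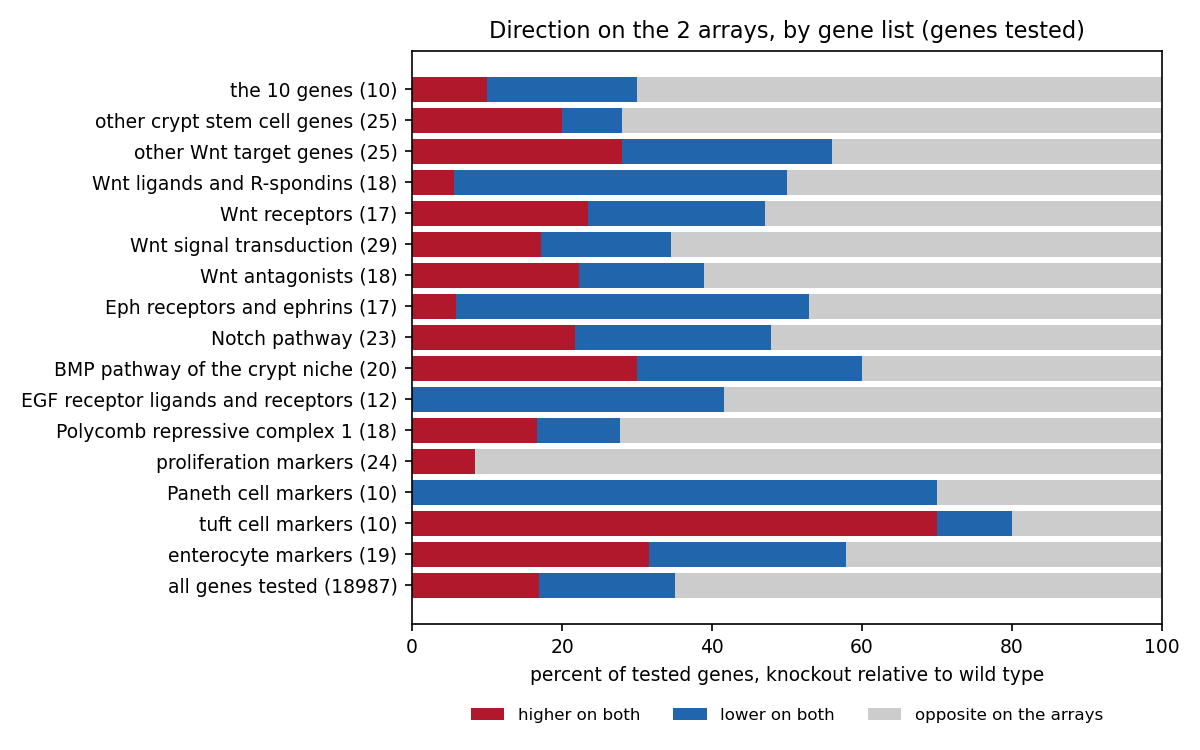
Percent of tested genes (x axis) that were higher in the RNA labelled knockout than in wild type on both arrays (red), lower on both (blue) or opposite (grey), for the 10 genes, lists of the pathway, niche and cell types, and all genes tested (y axis, number tested in brackets). The 10 genes are split 1, 2 and 7, and proliferation markers 2, 0 and 22.

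Signals of the crypt niche were mixed. Of 23 Notch genes, 5 were higher and 6 lower on both (median 0.01). Gfi1, a transcriptional repressor made in secretory progenitors, was at 0.33 ± 0.14 and the ligand Jag2 at -0.20 ± 0.03. Of 20 BMP genes, 6 were higher and 6 lower on both (median -0.03), with the BMP target Id1 at -0.37 ± 0.10 and its second probe at -0.02 ± 0.58, and the receptor Bmpr2 at 0.28 ± 0.06. Of 12 genes of EGF receptor signalling, none was higher and 5 were lower on both (median -0.07), with the ligand Hbegf at -0.30 ± 0.11 and Egf at -0.14 ± 0.03. Of 17 Eph receptors and ephrins other than Ephb2, 1 was higher and 8 were lower on both (median -0.06), with Epha3 at -0.17 ± 0.02 and Epha2 at -0.15 ± 0.07. The Epha3 probe was dim, at 62.6 and 59 in the RNA labelled knockout, against 71.2 and 66.1 in the RNA labelled wild type. Its processed ratios were -1.16 in replicate 1 and -0.19 in replicate 2. Other Epha3 probes, not tested, were at 0.10 ± 0.13 and 0.15 ± 0.09. Of 18 partners of Bmi1 in Polycomb complexes, 3 were higher and 2 lower on both (median 0.00), with Phc1 at 0.29 ± 0.00 and its second tested probe at 0.06 ± 0.27, and Pcgf1 at 0.44 ± 0.39.

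Cell type markers were set beside the 10 genes. Of 24 proliferation markers, 2 were higher on both, none was lower on both and 22 were opposite (median 0.02), and Mki67, which marks cycling cells, was at 0.08 ± 0.19. Birc5, an inhibitor of cell death needed at mitosis, was at 0.36 ± 0.11. Of 10 Paneth cell markers, none was higher and 7 were lower on both, with a median of -0.23. It was -0.31 without replicate 1, -0.11 without replicate 2 and -0.12 with outlier spots kept. Their summed intensity was 316000 and 313000 in the RNA labelled knockout, against 402000 and 391000 in the RNA labelled wild type. Bright probes weigh most in this sum too. Lysozyme, Lyz1, was at -0.50 ± 0.40 and Pla2g2a at -0.25 ± 0.15. Of 19 enterocyte markers, 6 were higher and 5 lower on both (median -0.05). The fatty acid binding protein Fabp1 was at 1.28 ± 0.01 and lactase, Lct, at 1.41 ± 0.61, while the fructose transporter Slc2a5 was at -0.31 ± 0.02. Of 15 general epithelial markers, 3 were higher and 3 lower on both, with villin, Vil1, at -0.06 ± 0.07. The 15 crypt mesenchyme markers (2 higher and 1 lower on both) had 0.00 as their median, the 11 smooth muscle markers (1 lower on both) -0.04 and the 8 endothelial markers (2 lower on both) -0.02. Of 10 tuft cell markers, 7 were higher and 1 was lower on both, with Rgs13 at 0.76 ± 0.01. The tuft cell median was 0.24, but 0.07 without replicate 1 and 0.42 without replicate 2. Of 10 skeletal muscle markers, 8 were higher and 2 lower on both (median 0.78), with Myh4 at 2.18 ± 0.23. Goblet cell markers were at 0.05 (11 genes, 2 higher and 2 lower on both), enteroendocrine markers at -0.05 (15 genes, 3 higher and 5 lower on both), and neuron and glia markers at -0.08 (8 genes, 1 lower on both). Of 4 hepatocyte and pancreas markers tested, 1 was higher and 1 lower on both. In these marker lists, 2 enterocyte, 1 tuft cell and 6 skeletal muscle markers reached 1.5-fold higher on both arrays. With the processed ratios, limma called 2 enterocyte and 6 skeletal muscle markers, among them Fabp1 (adjusted p = 0.00919), Lct (adjusted p = 0.000974) and Myh4 (adjusted p = 1.15e-05), and no gene of the other lists. The part of other cell types in the values of the 10 genes was not tested.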

How the data were processed

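Intensity columns in the deposited scanner output came from Feature Extraction 11.5.1.1, per the file headers, while the submitters' processing notes name 9.5. The deposited log10 ratio column holds the software's processed Cy5 over Cy3, background-subtracted, detrended and dye-normalized per the file headers, and a deposited p-value column its error-model p. The value table holds the same ratios rounded (largest difference 5e-04, column medians 0); its scale and direction were read from that match. It has 0 further columns.

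Mean signals were background-corrected by normexp with offset 50 and normalized by loess in R 4.3.3 with limma 3.58.1. Control spots had weight 0, and spots marked as outliers were left out. Spots of a probe were averaged, ratios turned to knockout over wild type, and the brightest tested probe taken per gene. Intensities are per channel after Aquantile scaling. Mean turned ratios were tested against 0 with lmFit and eBayes over 18987 genes (1 residual and 3.01 prior degrees of freedom), Benjamini-Hochberg adjustment at 0.05 and 95% intervals. The code was tested on simulated data. Symbols were updated through accessions in RefSeq (GRCm38.p6) (31441 of 43379 spots). No spot was saturated. The 2 arrays limit the precision.

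The members, lists and tests were chosen with earlier results of these data known. Named beside the 10 genes are up to 4 genes per list with the largest smaller-of-2-arrays ratio in the same direction; Kcnq1, Rgmb, Nav1 and Mki67 were chosen after their values were seen. Alternatives cover the processed ratios, the value table, background, normalization, surface, outlier marks, filter, probe choice and leaving out each array.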

Additional observations from a re-analysis of the deposited data

How the results depend on the processing

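No gene of the 10 passed limma, or reached 1.5-fold on both arrays in 1 genotype direction, in any of the 9 processing alternatives. The means of Olfm4, Smoc2, Axin2 and Rnf43 were negative in all 9 processing alternatives, which all start from the same 2 arrays. The value table repeats the processed ratios rounded, and dropping the filter left these means unchanged. On the arrays themselves Olfm4, Axin2 and Rnf43 went opposite ways. Other means near 0 changed sign: Lgr5 (0.02) was at -0.08 with the processed ratios and the value table, -0.02 with median centring, -0.05 with a surface removed and -0.01 with outlier spots kept. Ascl2 (-0.06) was at 0.00 with the processed ratios and the value table and 0.02 with a surface removed. Sox9 (0.05) was at 0.00 with the processed ratios, the value table and outlier spots kept. Znrf3 was at -0.05 and Ephb2 at 0.06 with outlier spots kept, and Bmi1 at 0.01 with no background correction. The cause was not tested. The median of the 10 was -0.17 without replicate 1 and -0.01 without replicate 2.

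Of the 10, 1 was lower on both arrays with the processed ratios and the value table, and 0 with a surface removed, against 2. The 1 higher on both became 0 with those 3 settings, with offset 0, with outlier spots kept and with the mean of probes. Over all genes, the 41 at least 1.5-fold apart became 161 with the processed ratios, 159 with the value table, 89 with offset 0 and 24 with outlier spots kept. The 0 called by limma, with 236 at an unadjusted p under 0.05, became 39 with the processed ratios, 37 with the value table, 22 with offset 0 and 5 with a surface removed. Each array sets both genotypes side by side, so the ratios tested against 0 were already paired within an array. With a single group of arrays, no further pairing was made. A dye term was not fitted, because no residual degrees of freedom would be left.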
